A study of Homo sapiens with 13 samples.

Results

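The transcriptional response of parental CCRF-CEM cells to FK866 was measured on 5 of the 13 arrays of the series. CCRF-CEM is an established human line of T-lineage acute lymphoblastic leukemia (T-ALL), and FK866 is a small-molecule inhibitor of nicotinamide phosphoribosyltransferase (NAMPT). The parental cells, called CEM PA, were incubated for 48 h with 5 nM FK866 (2 arrays) or with DMSO alone (mock, 3 arrays). The labels name no transgene or genetic change in either group, and they number the arrays as biological replicates of the same line. All arrays with these labels were taken, irrespective of their values, and all genes that could be measured were compared. The other 8 arrays hold the FK866-resistant derivative, CEM RES, 4 with FK866 at the same dose and time and 4 with mock. They entered the normalization, the choice of probes and the spread estimated by the fit, and so every CEM PA test. Their own values are given below where both lines are compared. CEM RES was selected in rising FK866 concentrations and grows in 100 nM.

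NAMPT converts nicotinamide to nicotinamide mononucleotide, the step that limits the salvage of NAD+, the electron carrier of glycolysis and respiration. NAD+ is also consumed as a substrate by sirtuins, poly(ADP-ribose) polymerases and CD38, so a cell without NAMPT activity drains its pool unless another route refills it. These routes start from nicotinic acid through NAPRT, from tryptophan through QPRT, or from nicotinamide riboside through its kinases. Loss of NAD+ slows ATP production, which in T-lineage leukemia cells is known to engage energy sensing through AMPK and mTOR and to end in cell death.

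Of the 43118 spots of an array that were not controls, between 26457 and 31882 were well above background on the CEM PA arrays, and 0 were saturated. The FK866 and mock arrays of replicate 1 lay on the same slide and were scanned in the same session (session 1), whereas FK866 replicate 2 and mock replicates 2 and 3 were each on a slide of their own and were scanned in session 2. No CEM PA array was scanned together with a CEM RES array. Arrays of the same group had a Pearson correlation across genes of 0.982 to 0.991. All 22 T-lineage marker genes were above background on the 5 arrays. Of the markers on the array design, so were 4 of 8 B cell, 3 of 8 NK cell, 2 of 8 myeloid and 5 of 7 erythroid markers. The same held for 3 of 9 epithelial and 2 of 9 fibroblast and endothelial markers, so detection alone does not set the T lineage apart. CD3D, a chain of the T cell receptor complex, had a log2 signal of 16.88 and 16.69 with FK866 and of 16.91, 16.82 and 16.73 with mock. All values below are log2 signals after quantile normalization, a fold change is the FK866 mean minus the mock mean on that scale (log2 fold change ± SE of the fit), and values of different genes come from different probes and are not compared with each other. The arrays measure RNA relative to all RNA of the sample, so a change in the RNA content of a cell cannot be told apart from its absence.

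FK866 changed a limited part of the transcriptome. Among 17597 genes, 440 were higher and 523 lower with FK866 by the double threshold of the study (an absolute log2 fold change over 0.75 with an unadjusted p under 0.05, here from limma), which is 2.5% and 2.97% of the genes tested and 5.47% in both directions. A gene that passed this threshold is called changed below. After Benjamini-Hochberg adjustment over all genes, 69 rises and 21 falls remained (0.511%), while 2369 genes had an unadjusted p under 0.05. The median gene stood at -0.02. When the arrays were scaled to their 75th percentile in place of quantile normalization, the split of the changed genes was 295 higher against 899 lower with the median gene at -0.11, so the balance of rises and falls depended on the scaling. Both FK866 arrays lay above all 3 mock arrays in 2728 genes (15.5%) and below all of them in 3322 (18.9%), and 917 of the 963 changed genes were among these.

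The number of calls after adjustment rested on single arrays more than the number by the double threshold. Without FK866 replicate 1 or 2, 28 or 38 genes passed the adjusted p, and without mock replicate 1, 2 or 3 it was 25, 19 or 59. By the double threshold the count was 1143, 937, 1307, 1052 and 894 in the same order. With the replicate number as a block 503 genes passed the adjusted p, 239 higher and 264 lower. Mock replicate 3 has no partner, so the block takes it out of the contrast. Fold changes with the block and without that array therefore nearly coincide, and are not separate checks. Of the 90 genes called without the block, 81 were called with it. With the 5 CEM PA arrays processed and fitted alone, 5 genes passed the adjusted p and 1056 the double threshold.

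The largest rises included regulators of G protein and Ras signalling, ubiquitin ligase components, a kinase of the Hippo pathway and a zinc exporter. RGS1, which ends G protein signals in lymphocytes, had the largest rise among genes that passed the adjusted p, were above background on the higher arrays and did not overlap, followed by RASD1 and KLHL11. LATS1, the kinase that restrains YAP, measured 8.23 and 8.32 with FK866 and 5.65, 6.25 and 6.44 with mock. Its log2 fold change was 2.16 ± 0.24 (limma, adjusted p = 0.00195), and both FK866 arrays exceeded the highest mock array by more than a log2 unit. MYLIP, a ubiquitin ligase that degrades the LDL receptor, was at 11.32 and 10.87 against 9.46, 9.43 and 8.51 (1.96 ± 0.39, limma, adjusted p = 0.04997). RMND5A, a subunit of the CTLH ubiquitin ligase complex, was at 11.93 and 11.70 against 9.94, 9.92 and 10.41 (1.73 ± 0.19, limma, adjusted p = 0.00195). KLHL15, a substrate adaptor of CUL3 ubiquitin ligases, rose by 1.79 ± 0.18 and RNF213, a large ring-finger protein known from moyamoya disease, by 1.83 ± 0.32. Further members of this set were FAM22G (2.10 ± 0.23), PHLDA2 and POLR2M, the last 2 of which were not above background on any mock array and stood at 0.33 and 0.42 with normexp background correction, where neither was called. LATS1, MYLIP, RMND5A, KLHL15, RNF213 and FAM22G stayed changed under each of 18 alternative settings, leaving out any of the 5 arrays included. The size depended on the probe for 3 of them. The other kept probe of LATS1 stood at 0.39 ± 0.21 and that of RNF213 at 0.12 ± 0.22, and those of RMND5A at 0.31 ± 0.28 and 0.27 ± 0.25, none of them changed. With the mean of the probes LATS1 was at 1.27, RNF213 at 0.97 and RMND5A at 0.77. KLHL15 was at 0.84 with normexp background correction.

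Past the adjusted p, rises outnumbered falls (69 against 21), but not with 75th percentile scaling (78 against 99) or with the replicate block (239 against 264). PEX3, which brings membrane proteins to peroxisomes, measured 8.85 and 9.02 with FK866 and 10.04, 10.06 and 10.38 with mock, a log2 fold change of -1.22 ± 0.17 (limma, adjusted p = 0.0121). TFB1M, the methyltransferase that dimethylates the small ribosomal RNA of mitochondria, was at 10.50 and 10.71 against 11.35, 11.72 and 11.95 (-1.07 ± 0.20, adjusted p = 0.0489). KAZALD1, a secreted insulin-like growth factor binding protein, was at 9.52 and 9.68 against 10.76, 11.24 and 10.68 (-1.29 ± 0.25). In each of the 3 genes both FK866 arrays lay below every mock array, as the rule for naming them required. HAR1A, a non-coding RNA (-1.20 ± 0.21), C2orf81 (-1.39 ± 0.27) and PECAM1, an adhesion molecule also found on T cells (10.63 and 10.42 against 11.36, 11.45 and 11.47, -0.90 ± 0.17), fell with an adjusted p under the threshold as well. All 6 stayed changed under each of the 18 alternatives.

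Genes that make ribosomes were higher as a group. Ribosome biogenesis covers transcription of ribosomal RNA by RNA polymerase I, its processing and modification in the nucleolus, and the assembly of subunits. Of 104 members tested, 90 had a fold change above 0 and the list's median was 0.43, against -0.02 for all genes. Both FK866 arrays lay above all mock arrays in 56 members (53.8%, against 15.5% of all genes) and below them in 3 (2.88%, against 18.9%). The size was small in each gene, since 4 members rose and 0 fell by the double threshold (3.85%, below the 5.47% of all genes). The mean log2 signal of the list was 11.70 and 11.74 with FK866 and 11.49, 11.45 and 11.12 with mock, so the FK866 arrays were above each mock array, and mock replicate 3 was the lowest. The median was 0.21 in session 1 and 0.46 in session 2, and it was 0.27 without mock replicate 3, which is also the value with the replicate block. In CEM RES the same list had a median of -0.06.

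**Figure D1:**
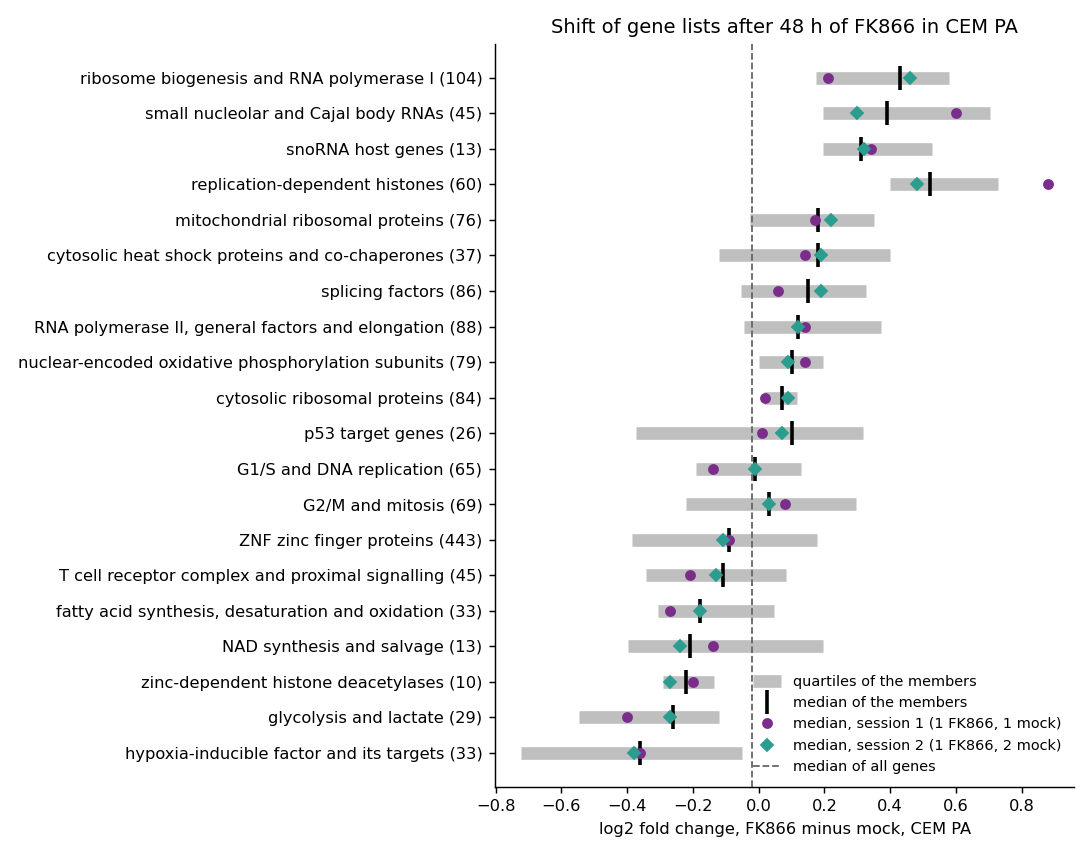
Log2 fold change of FK866 against mock in CEM PA for 20 gene lists, with the number of tested genes in parentheses. Grey bars span the quartiles of the members, black ticks their median, circles and diamonds the median within scan session 1 and 2, and the dashed line the median of all genes. The lists for ribosome biogenesis, small nucleolar RNAs and histones lie to the right and those for glycolysis and hypoxia to the left.

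TAF1A, a subunit of the SL1 factor that recruits RNA polymerase I to ribosomal DNA, measured 10.42 and 10.59 with FK866 and 9.37, 9.35 and 9.40 with mock. It rose by 1.13 ± 0.20 (limma, adjusted p = 0.0358). NLE1, which acts in the release of assembly factors from the large subunit, was at 12.76 and 12.70 against 11.85, 11.87 and 11.57 (0.97 ± 0.25, adjusted p = 0.106). Both genes stayed changed under all 18 alternatives. POLR1B, the second largest subunit of RNA polymerase I, was at 10.48 and 10.43 against 9.98, 9.77 and 9.10 (0.84 ± 0.35). It did not stay changed without FK866 replicate 1 (0.81), FK866 replicate 2 (0.86) or mock replicate 3 (0.57). The replicate block, which also leaves mock replicate 3 out of the contrast, gave 0.58 and no call. NOL9, a polynucleotide kinase of ribosomal RNA processing, rose by 0.76 ± 0.24 and was at 0.69 without FK866 replicate 1 and 0.64 without mock replicate 3 or with the block.

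Small nucleolar RNAs guide the methylation and pseudouridylation of ribosomal RNA, and Cajal body RNAs those of spliceosomal RNA. Most are cut from introns of host genes. Of 45 such RNAs tested, 40 were above 0, the median was 0.39, and 6 rose and 1 fell (15.6% changed, against 5.47% of all genes). Only 29 of them were above background on all 5 arrays, and their short, unpolyadenylated transcripts are labelled by a protocol made for messenger RNA. SNORA81, a guide lying in an intron of EIF4A2, measured 7.5 and 6.95 against 6.15, 5.99 and 6.15 (1.13 ± 0.24), but was at 0.69 with normexp background correction. SCARNA16 was at 8.95 and 9.44 against 7.19, 8.57 and 8.71 (1.04 ± 0.39), and at 0.79 without FK866 replicate 2 and 0.56 without mock replicate 1, no longer changed in either. The mean of the list was 6.0 and 6.34 with FK866 and 5.17, 5.91 and 6.14 with mock, so the groups overlapped. The list median was 0.24 without FK866 replicate 2, 0.20 without mock replicate 1, 0.20 with 75th percentile scaling and 0.16 with normexp background correction. The 13 host genes measured by their own exons had a median of 0.31, with 12 above 0 and 7 (53.8%, against 15.5% of all genes) above all mock arrays. EPB41L4A-AS1, the host of SNORA13, was at 13.65 and 13.80 against 12.56, 13.12 and 12.91 (0.86 ± 0.21). It was at 0.71 and not changed without mock replicate 1.

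Replication-dependent histones, made in S phase from messages that end in a stem-loop in place of a poly(A) tail, had a median of 0.52 over 60 genes, 57 of them above 0. This shift came with a wide spread between arrays of the same group. The mean of the list was 10.09 and 10.69 with FK866 and 9.17, 10.58 and 9.78 with mock, so mock replicate 2 was above FK866 replicate 1. The FK866 arrays lay above all mock arrays in 5 members (8.33%, below the 15.5% of all genes). By the double threshold 2 rose and 0 fell (3.33%, below the 5.47% of all genes). The median was 0.88 in session 1 and 0.48 in session 2, and it was 0.26 without FK866 replicate 2, 0.24 without mock replicate 1, 0.80 without FK866 replicate 1 and 0.88 without mock replicate 2. HIST2H2AB was the member that rose without overlap, at 10.30 and 10.86 against 9.07, 10.17 and 9.73 (0.93 ± 0.35), and it was at 0.64 without FK866 replicate 2 and 0.63 without mock replicate 1. In the same cells 0 of 65 genes of the G1/S transition and DNA replication changed, against 5.47% of all genes, and their median was -0.01. Of 69 genes of G2 and mitosis 1 rose and 2 fell (4.35%) with a median of 0.03.

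Proteins of the mitochondrial ribosome were slightly higher. Of 76 members 55 were above 0, the median was 0.18 and 30 (39.5%, against 15.5% of all genes) lay above all mock arrays and 5 (6.58%, against 18.9%) below. MRPL44, a subunit of the large mitochondrial ribosomal subunit, measured 12.70 and 12.68 with FK866 and 11.74, 11.58 and 11.70 with mock. Its rise of 1.02 ± 0.15 (limma, adjusted p = 0.0154) was the largest of the list and stayed under all 18 alternatives. MRPS30 (0.76 ± 0.26) and MRPL1 (0.85 ± 0.39) passed the double threshold, at 0.64 and 0.66 with the replicate block, where neither was changed. MRPS30 was also not changed without FK866 replicate 1 (0.59) or mock replicate 3 (0.64), nor MRPL1 without FK866 replicate 1 (0.97), FK866 replicate 2 (0.72), mock replicate 1 (0.90) or mock replicate 3 (0.65). The 84 proteins of the cytosolic ribosome moved far less: their median was 0.07, 0 of them changed, and 17 (20.2%) lay above all mock arrays, near the 15.5% of all genes. Nuclear genes of oxidative phosphorylation stood at a median of 0.10 with 0 of 79 changed, and the 13 genes encoded in mitochondrial DNA at -0.12 with 0 changed. The share of all genes that changed was 5.47%, so the 0 among 13 genes is not a result about them.

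Factors of RNA polymerase II and of splicing rose in a few members, and more members lay above the mock arrays than below. Of 88 genes for polymerase II subunits, general factors and elongation, 5 rose and 0 fell (5.68%), and of 86 splicing factors also 5 rose and 0 fell (5.81%), both shares near the 5.47% of all genes. The medians were 0.12 and 0.15, with 61 members of each list above 0. Of the polymerase II list 30.7% lay above all mock arrays and 10.2% below, and of the splicing list 25.6% and 8.14%, against 15.5% and 18.9% of all genes. TAF13, TAF8 and TAF5 are subunits of TFIID, which binds core promoters. TAF8 measured 11.35 and 11.48 against 10.41, 10.49 and 10.55 (0.93 ± 0.23) and was at 0.53 when the mean of its probes was used. TAF13 was at 6.62 and 6.74 against 5.70, 5.52 and 5.75 (1.03 ± 0.20, limma, adjusted p = 0.0489) and at 0.56, not called, with normexp background correction. TAF5 was at 8.72 and 8.55 against 7.93, 7.34 and 7.88 (0.92 ± 0.21), and at 0.73 and no longer changed without mock replicate 2 or with normexp. In each of the 3 subunits the FK866 arrays lay above all mock arrays, which was a condition for naming them. CELF1, an RNA-binding protein that regulates splicing and decay of messages rich in GU, measured 7.07 and 6.92 against 5.48, 5.76 and 5.98 and rose by 1.25 ± 0.19 (adjusted p = 0.0194), but was at 0.68 and not called with normexp. PRPF38B, a spliceosome component, was at 10.82 and 11.50 against 9.49, 10.27 and 10.50 (1.07 ± 0.37), and was not called without FK866 replicate 2 (0.73) or mock replicate 1 (0.77).

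Zinc handling was represented by an exporter and by metallothioneins. Free zinc binds the transcription factor MTF1, which then activates its targets through metal response elements, and the known targets are metallothioneins, which buffer zinc, and SLC30A1 (ZnT1), which carries zinc out of the cell. SLC30A1 measured 9.21 and 9.30 with FK866 and 7.04, 6.65 and 7.77 with mock. It rose by 2.10 ± 0.37 (limma, adjusted p = 0.0358), stayed changed under all 18 alternatives, and stood at -0.07 in CEM RES. MT1G was at 5.56 and 6.03 against 3.84, 4.25 and 5.01 (1.43 ± 0.36), but was above background on 2 of the 3 mock arrays and was at 0.49 with normexp background correction. The other metallothioneins, chosen after their values were seen, showed a common pattern among the mock arrays. MT2A was at 12.01 and 12.23 against 10.20, 10.75 and 12.82, MT1X at 10.29 and 10.38 against 9.25, 9.22 and 10.83, and MT1E at 7.82 and 8.20 against 6.04, 6.29 and 8.14. In MT2A and MT1X the FK866 arrays were above mock replicates 1 and 2 and below mock replicate 3, and in MT1E FK866 replicate 1 was below it too. MT1E passed the double threshold with overlapping groups (1.19 ± 0.47), whereas MT2A (0.86 ± 0.55) and MT1X (0.57 ± 0.38) did not pass the test. Metallothionein messages are near-identical, so a probe of one member may also bind another. Of the 40 genes of iron, heme, copper and zinc handling, 3 rose and 0 fell (7.5%, against 5.47% of all genes) with a median of 0.14. MTF1 itself stood at -0.18 ± 0.25.

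The promoters of 3 of these genes are shown because they hold different numbers of the metal response element. The bases before the start are given from RefSeq (GRCh38.p14), with every match to TGCACNC or TGCGCNC, read on either strand with N as any base, in capitals. SLC30A1 at chr1:211579162-211579411 on the minus strand had 1 match, 49 bases before the start, MT1X at chr16:56682220-56682469 on the plus strand had 4 and MT2A at chr16:56608334-56608583 on the plus strand had 7.
SLC30A1: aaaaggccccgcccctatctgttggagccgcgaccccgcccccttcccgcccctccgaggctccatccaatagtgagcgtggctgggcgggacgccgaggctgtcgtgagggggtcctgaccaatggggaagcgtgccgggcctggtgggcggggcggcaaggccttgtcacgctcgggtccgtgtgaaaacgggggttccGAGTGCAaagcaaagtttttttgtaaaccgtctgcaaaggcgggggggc
MT1X: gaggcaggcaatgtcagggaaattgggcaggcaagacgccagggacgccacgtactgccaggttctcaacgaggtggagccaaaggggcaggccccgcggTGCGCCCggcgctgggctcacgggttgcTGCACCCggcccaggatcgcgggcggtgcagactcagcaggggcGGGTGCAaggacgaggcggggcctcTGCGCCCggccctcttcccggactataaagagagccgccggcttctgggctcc
MT2A: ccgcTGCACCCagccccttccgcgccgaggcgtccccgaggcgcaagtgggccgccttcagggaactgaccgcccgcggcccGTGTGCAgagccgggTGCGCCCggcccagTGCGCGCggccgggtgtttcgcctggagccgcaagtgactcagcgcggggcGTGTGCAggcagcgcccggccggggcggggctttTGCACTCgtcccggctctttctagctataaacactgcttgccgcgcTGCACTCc
At least 1 match is found in 31.6% of the 11481 promoters that could be paired with a tested gene, and in 28.3% and 30.4% of those of genes that rose and fell. The gene with the single match, SLC30A1, was the one that passed the adjusted p, and the genes with 4 and 7 did not pass the test. Among the other short motifs searched on both strands, the E-box CACGTG was found in 8.64% of all promoters, 9.22% of those that rose and 10.8% of those that fell, and the cyclic AMP response element TGACGTCA in 2.67%, 1.02% and 1.35%. A match in these letters is a description of the sequence and not evidence of binding.

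Energy sensing gave opposite movements in a few central genes without a shift of the pathway. AMPK is the kinase that responds to a falling ATP level, mTORC1 the complex that couples nutrients to growth, and folliculin (FLCN) with its partner FNIP1 binds AMPK and acts on the Rag GTPases that recruit mTORC1 to the lysosome. Of 51 genes in this list 3 rose and 1 fell (7.84%, against 5.47% of all genes), and the median was 0.01. FLCN measured 11.72 and 11.58 with FK866 and 9.25, 9.48 and 9.89 with mock, a rise of 2.11 ± 0.20 (limma, adjusted p = 0.00112). The probe that gave it lies at position 17124668 to 17124727 of chromosome 17 (hg19), and its other 2 kept probes, upstream and downstream of it, did not pass the test (0.09 ± 0.25 and 0.78 ± 0.47), and the mean of the probes stood at 0.99. FNIP1 was at 8.06 and 8.17 against 6.89, 7.0 and 7.45 (1.00 ± 0.45, adjusted p = 0.361) and passed narrowly. It was not called with the replicate block (1.17) or without FK866 replicate 1 (1.05), FK866 replicate 2 (0.94), mock replicate 1 (0.88) or mock replicate 2 (0.95). PRKAA1, a catalytic subunit of AMPK, was at 8.79 and 8.12 against 7.99, 7.03 and 7.39 (0.99 ± 0.26) but stood at 0.44 when its probes were averaged, at 0.65 without FK866 replicate 1 and at -0.10, from another probe, when the CEM PA arrays were processed alone. RPTOR, the scaffold of mTORC1, measured 12.01 and 11.92 with FK866 and 12.85, 13.01 and 12.91 with mock. It fell by 0.96 on the log2 scale (SE 0.20, adjusted p = 0.0585) and stayed changed under all 18 alternatives.

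Stress responses moved in few members by the double threshold. The integrated stress response lowers translation through phosphorylated eIF2 alpha and raises ATF4 and its targets. Of its 37 genes 2 rose and 1 fell (8.11%, against 5.47% of all genes). The list's median was 0.12, and -0.02 without mock replicate 3 and with the replicate block. PPP1R15A (GADD34), the phosphatase subunit that reverses eIF2 alpha phosphorylation, measured 10.97 and 10.69 with FK866 and 9.79, 9.54 and 9.44 with mock (1.24 ± 0.31, limma, adjusted p = 0.103). It stayed changed under all 18 alternatives, whereas ATF4 itself stood at 0.06 ± 0.18 and its target ASNS at 0.33 ± 0.16. DDIT3 (CHOP), a transcription factor downstream of ATF4, was the other rise, at 9.63 and 9.65 against 9.01, 9.20 and 8.37 (0.78 ± 0.30). DDIT3 was not called with the replicate block (0.54) or without FK866 replicate 1 (0.79), FK866 replicate 2 (0.77) or mock replicate 3 (0.53), nor with 75th percentile scaling (0.74), normexp background correction (0.66) or array quality weights (0.65). DNAJC3 (p58IPK), a chaperone that inhibits the eIF2 alpha kinases, measured 11 and 10.72 against 9.61, 9.77 and 9.87 and rose by 1.11 ± 0.16 (adjusted p = 0.0132). It was the 1 of 24 genes of the unfolded protein response that changed (4.17%), and HSPA5, the central chaperone of that response, stood at -0.11 ± 0.28. CHORDC1, a co-chaperone of HSP90, was at 10.36 and 10.42 against 9.31, 9.24 and 10.10 (0.84 ± 0.29), the 1 change among 37 heat shock genes (2.7%). That list was otherwise higher in small steps, with 25 members above 0, a median of 0.18 and 15 (40.5%, against 15.5% of all genes) above all mock arrays. CHORDC1 was not changed without FK866 replicate 2 (0.81), mock replicate 1 (0.72) or mock replicate 2 (0.68). Of 26 p53 targets 0 changed, against 5.47% of all genes, with a median of 0.10.

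Of 49 immediate early genes and MAP kinase phosphatases 4 rose and 0 fell (8.16%, against 5.47% of all genes), with a median of 0.26. DUSP10, a phosphatase of JNK and p38, measured 9.26 and 8.72 with FK866 and 8.16, 7.68 and 7.64 with mock (1.16 ± 0.29), and stayed changed under all 18 alternatives. SPRY2, an inhibitor of receptor signalling to ERK, was at 7.89 and 8.12 against 7.0, 7.23 and 7.12 (0.89 ± 0.18, limma, adjusted p = 0.0537) and at 0.67 with normexp background correction. DUSP4 rose by 0.80 ± 0.24, and was at 0.61 without FK866 replicate 2 and 0.53 without mock replicate 1. The first-wave transcription factors did not pass the test: FOS stood at 0.35 ± 0.91 and JUN at 0.07 ± 0.35. MYC was at 12.84 and 12.76 against 12.14, 12.48 and 10.55 (1.08 ± 0.52) and did not pass the test, with mock replicate 3 apart from the others.

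Over the 67 genes of cytokine and chemokine receptors, adhesion and interferon targets, 1 rose and 2 fell (4.48%, below the 5.47% of all genes) and the median was -0.04. S1PR1, the receptor that lets T cells leave lymphoid tissue along a gradient of sphingosine 1-phosphate, measured 8.6 and 8.32 with FK866 and 7.34, 7.30 and 6.89 with mock (1.29 ± 0.26, limma, adjusted p = 0.0537). CCR7, the chemokine receptor that holds T cells in lymph nodes and directs T-ALL cells to the central nervous system, measured 13.52 and 12.86 against 14.46, 14.14 and 14.98 (-1.33 ± 0.45). S1PR1 stayed changed under all 18 alternatives, and CCR7 under 17, with -1.01 and no call without FK866 replicate 2. Of 45 genes of the T cell receptor complex and its proximal signalling 0 rose and 1 fell (2.22%), with a median of -0.11. Below all mock arrays lay 11 of them (24.4%, against 18.9% of all genes). Of the 22 T-lineage markers 0 changed, against 5.47% of all genes.

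Among 46 regulators of apoptosis 2 rose and 1 fell (6.52%, against 5.47% of all genes), with a median of 0.03. BCL2L2 (BCL-w), which protects from cell death, measured 6.69 and 6.70 with FK866 and 8.01, 7.75 and 8.34 with mock and fell by 1.34 on the log2 scale (SE 0.33, limma, adjusted p = 0.092), under all 18 alternatives. HRK, a BH3-only protein that binds BCL2 relatives, was at 5.99 and 5.95 against 4.82, 4.86 and 4.70 (1.18 ± 0.35), dim on all arrays and at 0.46 with normexp background correction. BNIP1 rose by 0.82 ± 0.20. It was not changed without mock replicate 2 (0.74), without mock replicate 3 (0.72) or with the replicate block (0.73).

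**Figure D2:**
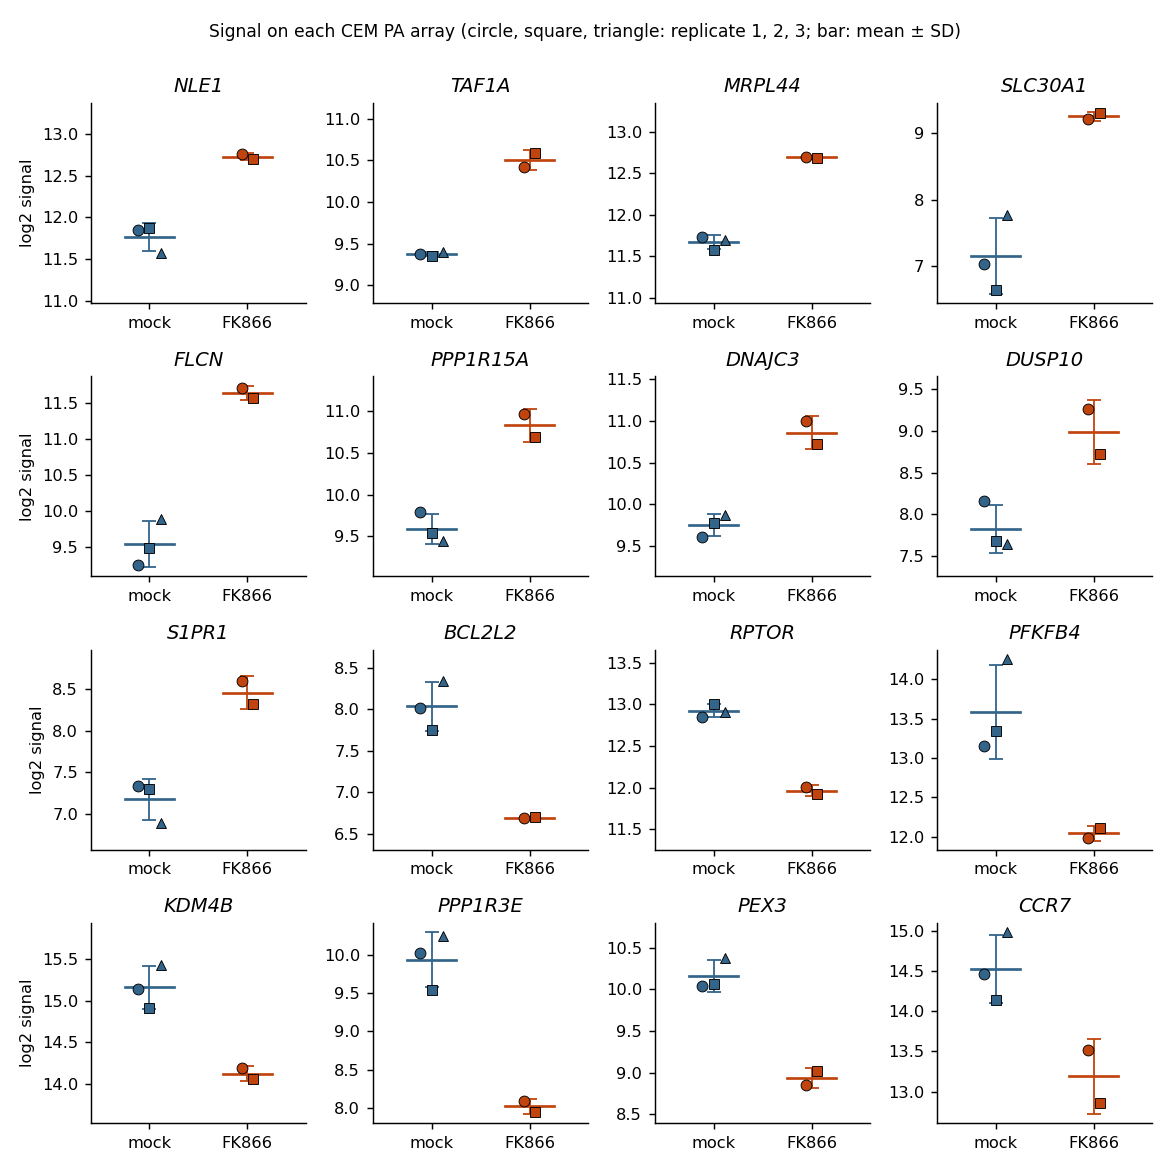
Log2 signal of 16 genes on each CEM PA array, mock in blue and FK866 in orange, with symbols for replicates 1 (circle), 2 (square) and 3 (triangle) and bars for the mean ± SD. The axes do not start at 0. In all 16 genes the FK866 arrays lie on one side of the mock arrays, which was a condition for naming them.

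Glycolysis was lower as a group. Of 29 genes for glycolysis and lactate handling 26 were below 0, the median was -0.26, and 15 (51.7%) lay below all mock arrays, against 18.9% of all genes. The mean of the list was 12.96 and 12.82 with FK866 and 13.32, 13.04 and 13.26 with mock, so the groups did not overlap. The shifts were mostly below the fold change limit, and 2 members fell and 0 rose (6.9%, against 5.47% of all genes). PFKFB4, which makes fructose 2,6-bisphosphate, the activator of phosphofructokinase, measured 11.98 and 12.11 with FK866 and 13.15, 13.34 and 14.26 with mock (-1.53 ± 0.52). SLC16A3 (MCT4), the exporter of lactate, was at 13.07 and 12.98 against 13.74, 13.81 and 13.85 (-0.78 ± 0.28). PFKFB4 was not called without FK866 replicate 1 (-1.47), and SLC16A3 not without FK866 replicate 2 (-0.73) or mock replicate 3 (-0.75). Chosen after their values were seen, the enzymes PFKP (-0.69 ± 0.22), PGAM1 (-0.63 ± 0.23), HK1 (-0.55 ± 0.24) and LDHA, the lactate dehydrogenase (-0.42 ± 0.20), lay below all mock arrays without reaching the double threshold, while GAPDH stood at -0.01 ± 0.18 and PFKM at 0.60 ± 0.22. The median of the list was -0.40 in session 1 and -0.27 in session 2, ranged from -0.41 without mock replicate 2 to -0.19 without FK866 replicate 2, and was 0.01 in CEM RES.

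Several of these enzymes are targets of the hypoxia-inducible factor, and the list of that factor and its targets was lower with a broader spread. Of 33 genes 26 were below 0 with a median of -0.36, and 3 fell (PFKFB4, KDM4B and DDIT4) and 1 rose (12.1%, against 5.47% of all genes). Below all mock arrays lay 7 (21.2%), near the 18.9% of all genes. Its mean was 11.87 and 11.65 with FK866 and 12.21, 11.60 and 12.47 with mock, so mock replicate 2 was as low as the FK866 arrays. The pattern is plain in ADM and DDIT4, which were chosen after their values were seen. ADM, the hypoxia-induced peptide adrenomedullin, was at 13.39 and 12.97 against 15.18, 11.54 and 16.37, and DDIT4 (REDD1), an inhibitor of mTORC1, at 14.75 and 14.25 against 16.56, 14.22 and 16.90. In both genes mock replicates 1 and 3 were high and mock replicate 2 was below the FK866 arrays, and the spread among the mock arrays of ADM exceeded its difference between groups (-1.18 ± 1.13). TXNIP, a glucose-responsive inhibitor of glucose uptake, was the member that rose, at 16.49 and 16.06 against 15.47, 15.92 and 14.96 (0.82 ± 0.30), and was at 0.58 with the replicate block, 0.61 without FK866 replicate 1 and 0.57 without mock replicate 3, not called in any of these. HIF1A stood at 0.67 ± 0.24. The median of the list was -0.51 without mock replicate 2, -0.49 without FK866 replicate 1 and -0.19 without mock replicate 3. The part of culture conditions in the spread of the mock arrays was not tested.

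Chromatin enzymes fell and rose in single members. Of 86 histone methyltransferases, demethylases and remodelers 1 rose and 4 fell (5.81%, near the 5.47% of all genes), with a median of -0.01. The 4 that fell were lysine demethylases of the Jumonji family. With the mean of the probes KDM4B (-0.54), KDM5B (-0.68) and JHDM1D (-0.12) were not called. The other kept probe of JHDM1D stood at 0.66 ± 0.61 and that of KDM5B at -0.42 ± 0.44. KDM4B measured 14.19 and 14.06 with FK866 and 15.14, 14.91 and 15.43 with mock (-1.03 ± 0.35), and was at -0.97 and not called without FK866 replicate 2. Its other kept probe, lying upstream, stood at -0.05 ± 0.34. KDM6B was at 4.74 and 4.96 against 6.4, 5.2 and 6.47 (-1.18 ± 0.39), and was not called without FK866 replicate 1 (-1.06) or with normexp (-0.55). KDM5B (-0.94 ± 0.42) and JHDM1D (-0.90 ± 0.40) passed narrowly. They were at -0.62 and -0.64 with the replicate block and without mock replicate 3, without a call, and neither was called without FK866 replicate 1, FK866 replicate 2 or mock replicate 1 (KDM5B at -0.93, -0.95 and -1.0, JHDM1D at -0.85, -0.95 and -0.97). SETD7, a methyltransferase of histone H3 and other proteins, measured 10.62 and 10.42 against 9.57, 8.94 and 8.97 and rose by 1.36 ± 0.22 (limma, adjusted p = 0.0281). Its other probe, downstream, stood at -0.40 ± 0.24, and the mean of both at 0.48.

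Of 63 protein phosphatase genes 4 rose and 3 fell (11.1%, against 5.47% of all genes), with a median of -0.03. PPP1R3E directs protein phosphatase 1 to glycogen, and measured 8.09 and 7.95 with FK866 and 10.03, 9.55 and 10.25 with mock. It fell by 1.92 on the log2 scale (SE 0.40, limma, adjusted p = 0.0574), under all 18 alternatives. PPP1R3B, a related targeting subunit, was at 11.89 and 11.70 against 12.80, 12.09 and 13.45 (-0.98 ± 0.38), at -0.65 with the replicate block or without mock replicate 3, and not called without FK866 replicate 1 (-1.07), FK866 replicate 2 (-0.89) or mock replicate 1 (-0.98). TRIM7, a ubiquitin ligase first known as a partner of glycogenin, was at 4.62 and 4.38 against 6.48, 5.92 and 6.85 (-1.91 ± 0.52), under all 18 alternatives, with -0.81 under normexp background correction. In the list of fatty acid synthesis, desaturation and oxidation 24 of 33 genes were below 0, the median was -0.18 and 1 changed (3.03%, below the 5.47% of all genes). PPARA, a nuclear receptor that drives fatty acid oxidation, was the 1 that fell, at 10.53 and 10.33 against 11.68, 11.30 and 11.53 (-1.07 ± 0.26), but its probe upstream stood at 0.69 ± 0.34. PDK3, which inhibits the entry of pyruvate into the tricarboxylic acid cycle, was at 9.84 and 9.78 against 10.59, 10.67 and 10.78 (-0.87 ± 0.22), under all 18 alternatives.

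Among larger families, the ZNF zinc finger proteins were more often lower than higher. Of 443 members 270 were below 0 and 120 (27.1%, against 18.9% of all genes) lay below all mock arrays, 68 (15.3%) above. The median was -0.09 and, with 75th percentile scaling, -0.19. By the double threshold 14 rose and 19 fell (7.45%, against 5.47% of all genes). ZNF438 (11.67 and 11.58 against 13.05, 12.48 and 12.98, -1.22 ± 0.28) and ZNF175 (-1.19 ± 0.28) fell under all 18 alternatives. The 10 zinc-dependent histone deacetylases had a median of -0.22, with 8 below 0. HDAC4 was the 1 that changed (10.0%, against 5.47% of all genes). It fell past the adjusted p, and under all 18 alternatives (-0.95 to -0.83). GTSE1, which binds p53 and microtubules in G2, was one of the 2 mitotic genes that fell (13.24 and 13.28 against 14.38, 14.41 and 14.86, -1.29 ± 0.31).

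Of 13 genes of NAD synthesis and salvage tested 0 changed, against 5.47% of all genes, and 13 genes are too few to read that 0. Below all mock arrays lay 5 (38.5%, against 18.9% of all genes) and above them 1 (7.69%, against 15.5%), and the median was -0.21. That median was -0.01 without mock replicate 3 and with the replicate block, and 0.08 when the probes of a gene were averaged, so the direction of the list was not settled. NAMPT, the target of the drug, measured 11.52 and 11.60 with FK866 and 11.69, 11.76 and 12.26 with mock (-0.34 ± 0.23, limma, adjusted p = 0.574), and stood at 0.15 with the mean of its probes. QPRT, the entry from tryptophan, was at 12.63 and 12.78 against 12.41, 12.60 and 12.51 (0.20 ± 0.23). The closest to a change were NADSYN1, the NAD synthetase, at 12.14 and 12 against 12.73, 12.76 and 12.80 (-0.69 ± 0.22), and C9orf95, the nicotinamide riboside kinase NMRK1, at 9.26 and 9.18 against 10.07, 9.88 and 9.78 (-0.69 ± 0.22). Both lay below all mock arrays and had an unadjusted p under 0.05 with a fold change inside the limit. C9orf95 passed the limit with the replicate block (-0.75), without mock replicate 3 (-0.75) and with 75th percentile scaling (-0.76), NADSYN1 without FK866 replicate 1 (-0.76), and NMNAT1, which makes NAD+ in the nucleus, with 75th percentile scaling (-0.78 against -0.56).

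The response of CEM PA was compared with that of CEM RES at the same dose and time. Of the 90 genes that passed the adjusted p in CEM PA, 0 passed the double threshold in the same direction in CEM RES. The share of all genes that passed it in CEM RES is not set beside this count, so the 0 has no background. The test of the difference between both responses called 23 genes (0.131%), all of them among the 90. That overlap is partly built in, because the same CEM PA arrays enter both tests. FLCN differed by -2.24 ± 0.25 (CEM RES response minus CEM PA response, limma, adjusted p = 0.00719), LATS1 by -2.53, DNAJC3 by -1.37, CELF1 by -1.60 and PEX3, which fell in CEM PA, by 1.42. For SLC30A1, TAF1A and MRPL44 the difference did not pass the adjusted p. Without mock replicate 1 or 2 the count was 7 or 11.

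Probes of the same gene often responded differently, and the difference had a direction. The array holds several probes for many genes, and for 2918 genes the probe nearest the 5′ end (upstream) and the one nearest the 3′ end (downstream) were kept and lay at least 1000 bases apart on the genome (hg19). This comparison was chosen after the values of single genes had been seen. With FK866 the upstream probe gained on the downstream probe in 168 genes (5.76%) and lost in 3 (0.103%), by an adjusted p from limma over the 2918 differences. The median of the difference was 0.22, from 0.14 for the upstream and -0.08 for the downstream probes. In the 168 genes the upstream probes had a median log2 fold change of 1.18 and the downstream probes of -0.30, the upstream probe rose by the double threshold in 133 genes and the downstream probe fell in 16, with both in 4 genes.

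**Figure D3:**
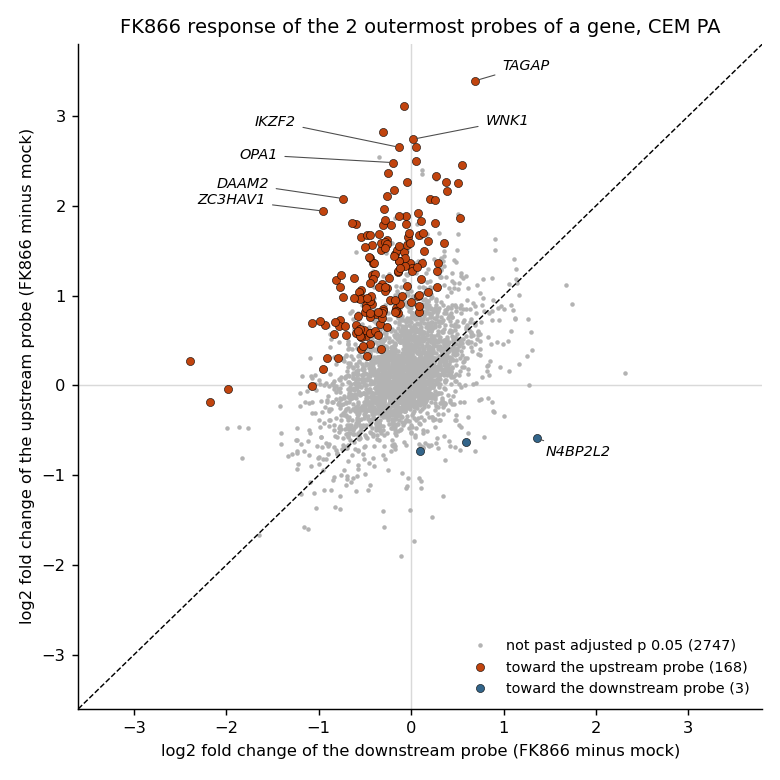
Log2 fold change of the downstream probe (x axis) and of the upstream probe (y axis) with FK866 against mock in CEM PA, for 2918 genes. Orange points are the 168 genes whose upstream probe gained, blue points the 3 whose upstream probe lost, and the dashed line marks equal change. The orange points lie above 0 on the y axis and near or below 0 on the x axis in most genes.

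ZC3HAV1, the antiviral protein ZAP, showed the difference in opposite directions. Its upstream probe, designed for transcript variant 2 and lying at chromosome 7, 138745443 to 138745502, measured 10.67 and 10.75 with FK866 and 8.69, 8.64 and 8.96 with mock. Its downstream probe for variant 1, 17.1 kb further, measured 12.11 and 12.05 against 13.08, 13.40 and 12.62. The gain was 2.90 ± 0.34 (limma, adjusted p = 0.000565), with the short variant higher and the long variant lower. OPA1, the GTPase that fuses the inner mitochondrial membrane, had an upstream probe at 9.27 and 8.95 against 6.50, 6.42 and 6.96, while its downstream probe 81.4 kb away was at 11.42 and 11.30 against 11.69, 11.48 and 11.50 (2.67 ± 0.26, adjusted p = 0.000131). IKZF2 (Helios), a transcription factor of T cells, had an upstream probe at 10.95 and 10.72 against 7.89, 7.90 and 8.77 and a downstream probe, for the same accession and 148 kb away, at 13.16 and 13.36 against 13.08, 13.53 and 13.54 (2.77 ± 0.27). WNK1, a kinase of ion transport, had an upstream probe at 8.29 and 8.05 against 5.06, 5.01 and 6.23 and a downstream log2 fold change of 0.02 ± 0.20 (gain 2.72 ± 0.38). In each of these genes the upstream signal was higher on both FK866 arrays than on any mock array, while the downstream groups overlapped or, in ZC3HAV1 and OPA1, lay lower. TAGAP, a GTPase-activating protein of activated T cells, had the largest upstream rise of those shown (3.39 ± 0.25, downstream 0.69 ± 0.24, 3.16 kb apart), and GAPVD1 (2.65 ± 0.29 against 0.05 ± 0.20), CHD6 (2.11 ± 0.30 against -0.26 ± 0.19) and USP47 (1.81 ± 0.32 against -0.64 ± 0.19) followed the same order. All 8 passed under each of 12 alternatives, and they are among the 30 of the 168 genes that did. The genes of this paragraph were chosen after their values were seen.

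**Figure D4:**
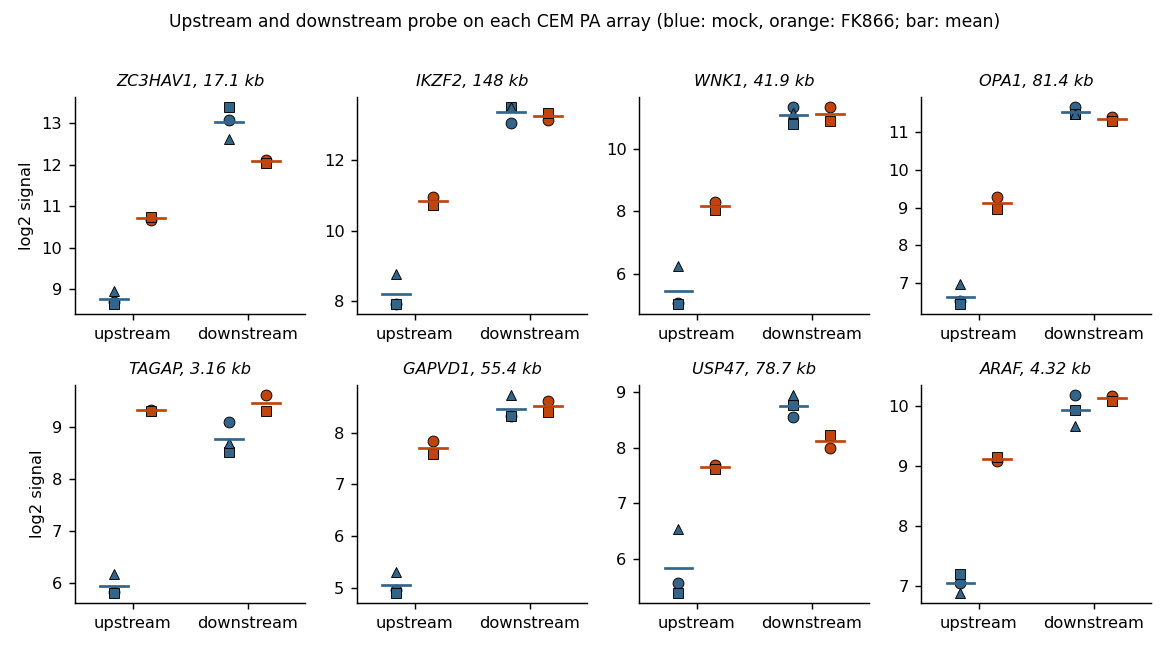
Log2 signal of the upstream and the downstream probe of 8 genes on each CEM PA array, mock in blue and FK866 in orange, with symbols for replicates 1 (circle), 2 (square) and 3 (triangle) and bars for the mean. The distance between the probes on the genome is given in each title, and in each gene the upstream probe is higher on both FK866 arrays than on the 3 mock arrays.

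The share of genes with a gain rose with the distance between the probes. It was 2.2% of 1091 genes with probes 1 to 5 kb apart, 5.07% of 927 at 5 to 20 kb and 10.8% of 900 at 20 kb or more, with median differences of 0.14, 0.19 and 0.37. It was present for probes designed on the same accession (4% of 1575) and on different ones (7.82% of 1343). Among the 2475 genes with both probes above background on all 5 arrays, 145 gained and 3 lost. The 3 that lost were LINC00461 (-1.22), N4BP2L2 (-1.94) and SCAPER (-0.83).

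The shift was seen in whole arrays as well as in single genes. The median of upstream minus downstream signal over the 2918 genes was -1.48 and -1.42 with FK866 and -1.80, -1.79 and -1.70 with mock, so the groups did not overlap in CEM PA. In CEM RES it was between -1.67 and -1.42 with FK866 and between -1.47 and -1.33 with mock, near the level of CEM PA with FK866. The lines were never scanned in the same session, so line and session cannot be told apart in these levels. With FK866 in CEM RES 0 genes passed the adjusted p in either direction (0.0%, with 205 at an unadjusted p under 0.05) and the median difference was -0.13. The difference between both responses passed in 132 genes (4.52%), of which 112 were among the 168, and both tests use the same CEM PA arrays. When every array was centred on its own median difference, 71 genes gained and 10 lost, and all 71 were among the 168. Without FK866 replicate 1 or 2 the gains were 46 and 68, without mock replicate 1, 2 or 3 they were 163, 103 and 176, and with the replicate block 306 genes gained and 10 lost. A gain of upstream over downstream signal on an array can also follow the integrity of its RNA or its labelling, whose part was not tested.

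**Figure D5:**
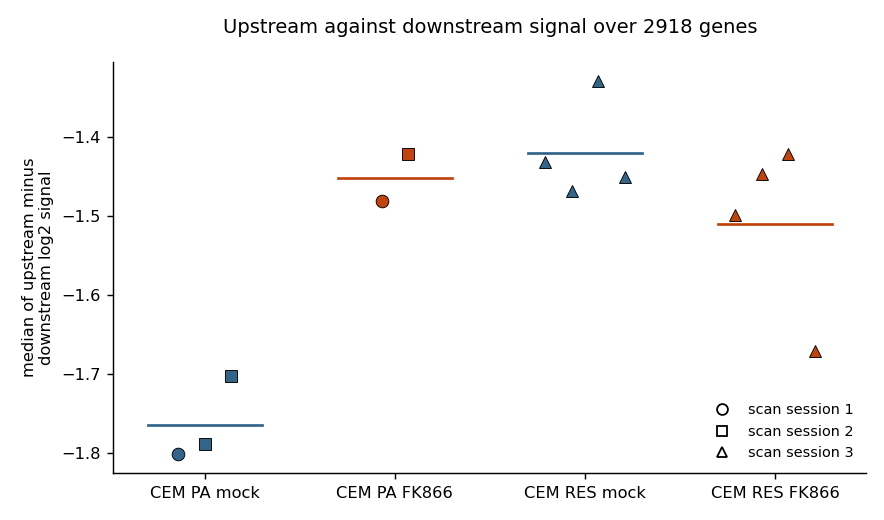
Median over 2918 genes of the upstream minus the downstream log2 signal on each of the 13 arrays, by group, with symbols for the scan session and bars for the mean of the group. The axis does not start at 0. The 2 CEM PA arrays with FK866 lie above the 3 CEM PA mock arrays and within the range of the CEM RES arrays. Levels of the 2 lines come from different scan sessions.

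The choice of probe therefore touched the calls of genes. Of the 963 changed genes 173 had such a pair. The pair shifted past the adjusted p, in either direction, in 29, which were 18 of 86 higher and 11 of 87 lower genes. Over all 2918 genes with a pair, 171 (5.86%) shifted in either direction. Of 230 changed genes with another kept probe, that probe was changed in the same direction in 71 and in the opposite direction in 6. SETD4 was called in opposite directions by its probes for variants 2 and 1 (1.09 ± 0.22 and -0.77 ± 0.19). WDR33, a subunit of the complex that recognises the polyadenylation signal, had 2 probes that rose (1.56 ± 0.21 and 1.28 ± 0.23), another further downstream at -0.68 ± 0.33 and one upstream of them at 0.46 ± 0.29. Both genes were chosen after their values were seen.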

How the data were processed

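Total RNA was labelled with Cy3 and hybridized to 1-colour Agilent Human GE 4x44K v2 arrays, 1 array per sample. The deposited spot intensities had been background-subtracted and detrended within each array by Agilent Feature Extraction (version 10.7.7.1 in the submitters' processing notes). A deposited table of log2 values, which the authors had quantile normalized, was used as an alternative. Here the processed intensities were set to log2 without outlier spots and quantile normalized over all 13 arrays. Spots of a probe were averaged. A probe was kept if a share of 0.5 or more of its spots passed the scanner's background test on all arrays of any group, and the brightest kept probe stood for a gene, which left 22754 of 34127 probes and 17597 genes. Gene names and hg19 positions are those of the array design and can be old.

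The 4 combinations of line and treatment were fitted together (limma 3.58.1, R 4.3.3), using Benjamini-Hochberg adjustment over all genes. A change was called at an absolute log2 fold change over 0.75 with p under 0.05, and separately at an adjusted p under 0.05. The procedure was tested on simulated data. No depth is defined for arrays, and their small number limits the precision. The labels call the arrays biological replicates without saying whether cultures were separate, so p-values measure the spread between these arrays. That spread is pooled over the 4 groups, so p-values of the CEM PA comparison also rest on the spread among the 8 CEM RES arrays.

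Same-numbered arrays were taken as pairs for the replicate block, because the correlation of their deviations from the group means was 0.44 and 0.343 in CEM PA and 0.217 to 0.484 in CEM RES, all above 0.1. Mock replicate 3 of CEM PA has no partner, so the block takes it out of the contrast. The pairing comes from the numbers in the labels. In CEM PA the deviations of the 2 FK866 arrays mirror each other, so their signs are not independent. FK866 replicate 2 also correlated with mock replicate 3 (0.235). Same-numbered CEM PA arrays shared a scan session, so number and session cannot be told apart there. In CEM RES arrays with unlike numbers reached at most 0.0684.

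The genes named are the largest changes past the adjusted p that did not overlap between groups, up to 4 changed and non-overlapping members per list and direction, the NAD genes and markers. Gene lists and members were chosen with earlier results of these data known. Other scalings, background corrections, filters, probe rules, blocks, weights and the omission of each CEM PA array were run as alternatives. For probe position, the 5′-most and 3′-most kept probes of a gene at least 1000 bases apart were compared as a difference per array in the same model, an analysis added after seeing the data. Promoter sequences are from RefSeq (GRCh38.p14), 250 bases before to 50 after the start, of which the bases before the start are printed. Of 17597 genes 11481 were matched to one by symbol. Python 3.11.15 was used for lists and figures.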

Additional observations from a re-analysis of the deposited data

Results flagged for a closer look

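Some genes responded to FK866 differently in both lines, by the limma test of the CEM RES response minus the CEM PA response, adjusted over all genes. The CEM RES response was lower by log2 differences of -3.076 in RGS1 (adjusted p = 0.00719), -2.767 in KLHL11 (adjusted p = 0.000894), -3.236 in POLR2M, -2.533 in LATS1 (adjusted p = 0.00956) and -2.244 in FLCN (adjusted p = 0.00719). POLR2M was not above background on any CEM PA mock array, so its difference is taken against an undetected level, and its rise in CEM PA was 0.42 with normexp background correction. The probe A_33_P3312754, which the array design gives no gene symbol, differed by -2.919 (adjusted p = 0.0312). FAM22G differed by -1.987, KLHL15 by -1.852, RMND5A by -1.792, CELF1 by -1.597 and DNAJC3 by -1.372. PEX3, which fell in CEM PA, differed by 1.417 (adjusted p = 0.0312). The lines were never scanned in the same session, so line and session cannot be told apart in their levels, while each response is measured within a line.

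The response of the upstream probe against the downstream probe differed between the lines in 132 genes by the same kind of test, over the genes with such a pair.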

How the results depend on the processing

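The number of genes past the adjusted p in CEM PA, 90 as reported, moved with most settings. It was 177 with 75th percentile scaling, 216 with normexp background correction, 37 with no filter on dim probes, 147 with probes above background on all 5 arrays, 43 with the mean of the kept probes, 5 with the CEM PA arrays alone (2587 at an unadjusted p under 0.05), 53 with scan session as a block, 706 with array quality weights and 138 with an intensity trend. With the replicate block it was 503, and with 1 array left out between 19 and 59. The double threshold gave 963 genes and moved beyond 1.5 times in 1 setting, to 436 with normexp. Genes whose response differed between lines, 23 as reported, numbered 9 with no filter, 7 with the mean of probes, 50 with weights and 7 to 33 with an array left out. Genes with a probe position shift, 171 in both directions, numbered 81 after centring, 257 with the session block, 316 with the replicate block, 53 with the CEM PA arrays alone and 47 to 178 with an array left out. Results that turned were the NAD list median (0.08) and SLC6A6 (0.25) with the mean of probes, and CENPI (-0.44), MAPK8 (-0.14) and PRKAA1 (-0.10) with the CEM PA arrays alone. Why these counts and values moved was not tested. Of 2510 values for the 141 named genes past the double threshold, 2196 kept direction and call, 310 lost the call and 4 turned, and 47 genes were called under every alternative. For the 57 other named genes, 18 values gained a call. Values that were not called turned as well, among them NAMPT (0.15 with the mean of probes), and so did list medians near 0. The integrated stress response list went from 0.12 to -0.02 with the replicate block and without mock replicate 3, the BCL2 family list from 0.03 to -0.01 with the block and -0.02 with weights, and the DNA damage list from -0.03 to 0.05 with the mean of probes. Signals near background limit the dim genes, the small nucleolar RNAs above all.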
